A study of Mus musculus with 6 samples.

Results

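Toll-like receptors and their shared adaptor Myd88 were followed in mouse macrophages treated with RI-BPI, a peptide inhibitor of the transcriptional repressor Bcl6 that blocks its contact with corepressors. The genes were taken by symbol from the platform annotation: Tlr1, Tlr2, Tlr3, Tlr4, Tlr6, Tlr7, Tlr8, Tlr9, Tlr13 and Myd88, which make 10 of the 19057 genes with a probe and are read by 16 probes. Of these genes 9 passed the detection filter, among 8205 measured genes in all, and Tlr3 did not. The cells were primary bone marrow-derived macrophages of wildtype c57Bl6/J males aged 10 weeks. In both groups the cultures were kept in MSF medium for 12 h with 5 µM peptide, either a control peptide (3 arrays) or RI-BPI (3 arrays). Per the labels the replicates are technical, with nothing on separate cultures, so p-values cover only the spread between these 6 arrays.

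Toll-like receptors recognise microbial molecules at the cell surface or in endosomes and signal through adaptors that carry a TIR domain. TLR2 pairs with TLR1 or TLR6 to bind bacterial lipoproteins, TLR4 binds lipopolysaccharide with the co-receptors MD-2 and CD14, and TLR3, TLR7, TLR8, TLR9 and mouse TLR13 read nucleic acids in endosomes. MyD88 links all of these receptors except TLR3 to IRAK kinases and on to NF-kB and MAP kinases, and macrophages depend on them to start inflammatory gene expression.

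The receptors moved in both directions, with 2 higher, 6 lower and Myd88 not called. Tlr2 rose about as far as its partner Tlr1 fell, Tlr4 was slightly higher and Tlr6 fell. The endosomal receptors Tlr7, Tlr8, Tlr13 and Tlr9 fell, led by Tlr8. Across all 8205 genes 30.7% were called higher and 30.6% lower, together 61.3%, at a Benjamini-Hochberg adjusted p under 0.05 in limma. Tlr9 passed the filter only through the control arrays, where it is brighter, so its fall is partly set by the filter. Among the 8 genes detected on all 6 arrays, 2 were called higher and 5 lower, with a median log2 change of -0.55. Of the 7253 genes of that kind 32.6% were called higher and 29.9% lower, together 62.5%. The arrays of the 2 peptides did not overlap for 2 genes that were higher and 6 that were lower, against 32.5% and 32.3% of all genes, together 64.9%. Calls were thus common among all genes, and a count of called receptors is no result by itself.

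Median signals per array lay between 45.8 and 47.4, and 12931 to 14357 of the 45281 probes were detected per array. All 10 macrophage markers with a probe were measured. Of these 5 fell (Fcgr1 by 1.73, Adgre1 by 0.86, Mertk by 0.74 and Tyrobp by 0.71 on the log2 scale, and Itgam, which was not detected on any RI-BPI array, at least 1.62-fold), and Csf1r (-0.09, with -0.96 at another probe), Lyz2, Ctsd, Lgals3 and Fcer1g were not called. Itgam passed the filter only through the control arrays, so its fall is partly set by the filter. The summed signal of the 10 macrophage markers was 73630 to 75080 with control peptide and 61170 to 68550 with RI-BPI. The part of these markers in the falls of the receptors was not tested. Fewer cells of a type and less RNA per cell cannot be told apart in such bulk samples. Of 7 markers of plasmacytoid dendritic cells, which also carry TLR7 and TLR9, only Bst2 and Tcf4 were measured, and the defining Siglech was not. Both fell, Bst2 by 0.67 ± 0.23 (SE) with a wide spread between arrays, and Tcf4 by 0.51 ± 0.12 on the log2 scale. The summed signal of the 7 was 1517 to 1901 with control peptide and 1127 to 1435 with RI-BPI. None of 8 dendritic cell and none of 8 fibroblast markers was measured, and of the B and T cell markers 1 of 7 with a probe. That gene, Cd79b, was detected on 3 control arrays and no RI-BPI array and was at least 1.15-fold lower, a fall partly set by the filter. The summed signal of these 7 was 324 to 335 with control peptide and 313 to 325 with RI-BPI. Of 9 neutrophil markers with a probe S100a8 and Csf3r were measured, and S100a8 rose by 0.36 and Csf3r fell by 0.51 on the log2 scale. The summed signal of the 9 was 961 to 1004 with control peptide and 949 to 1023 with RI-BPI.

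**Figure D1:**
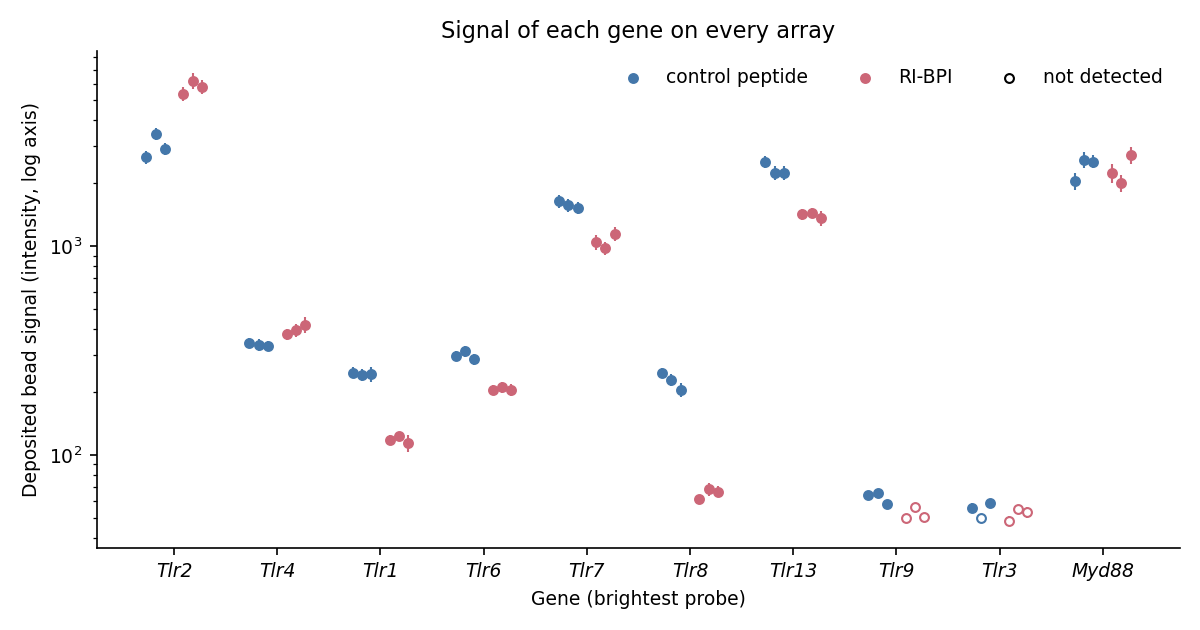
Deposited bead signal (intensity, log axis) of the brightest probe of each of the 10 genes on every array, with the standard error of the beads as bars. Filled points were detected at p under 0.01 and open points were not. Tlr2 lies higher and Tlr1, Tlr6, Tlr7, Tlr8, Tlr13 and Tlr9 lie lower on all 3 RI-BPI arrays (Tlr8 at 61.2 to 68.2 against 204 to 247), whereas the Myd88 arrays overlap.

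Among the receptors of the cell surface, Tlr2, which senses lipoproteins, gave signals of 2664, 3454 and 2929 on the control arrays and 5367, 6192 and 5788 on the RI-BPI arrays. Each RI-BPI array was brighter than each control array. The normalised log2 level went from 11.52 ± 0.19 to 12.53 ± 0.15 (SD, n = 3), an increase of 1.01 ± 0.12 (SE) or 2.02-fold (limma adjusted p = 5.78e-07). This placed Tlr2 at rank 398 among the 8205 genes ordered from the largest increase.

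Tlr1, the partner of TLR2 for triacylated lipoproteins, gave signals of 248, 242 and 243 with control peptide and 118, 123 and 114 with RI-BPI. The groups lay far apart, and the control arrays differed by less than the error of their beads (ratio of array SD to bead error 0.18). The log2 level fell by 1.17 ± 0.11, or 2.24-fold lower (adjusted p = 1.68e-08). Tlr6, the partner for diacylated lipoproteins, had 298, 313 and 287 against 205, 210 and 204 at its brighter probe and a change of -0.53 ± 0.11, 1.44-fold lower (adjusted p = 0.00026). Its other probe read 100.5, 95.6 and 99.8 with control peptide and 76.2, 72.2 and 60.2 with RI-BPI, a change of -0.67 ± 0.13, so both probes of Tlr6 fell without overlap. Tlr1 and Tlr6 are close paralogues, and cross-hybridisation between them was not tested here because the probe sequences were not used.

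Because TLR2 works as a pair with TLR1 or TLR6, the difference between their log2 values was taken within each array. A shift common to all log2 values of an array cancels there, but the treatment of the background does not. Tlr2 minus Tlr1 was 3.61 to 4.03 on the control arrays and 5.89 to 6.04 on the RI-BPI arrays. The mean moved from 3.80 ± 0.21 to 5.98 ± 0.08 (SD, n = 3), a shift of 2.18 or 4.53-fold in the ratio. Tlr2 minus Tlr6 moved from 3.47 ± 0.15 to 5.01 ± 0.06 (SD, n = 3), a shift of 1.54 or 2.91-fold. Without background correction the shifts against Tlr1 and Tlr6 were 1.97 and 1.47, and with an offset of 50 they were 1.94 and 1.46. In the authors' normalized table they were 1.95 and 1.46. Tlr2 was higher and Tlr1 and Tlr6 were lower on every RI-BPI array. The differences of Tlr2 to Tlr1 and to Tlr6 therefore had to separate, and they add no support to the single genes. Across the 4 pairs examined, the exact two-sided permutation p was 0.1 each, the smallest that 3 against 3 arrays allow. Benjamini-Hochberg adjustment over the 4 would leave it there. The levels of different probes cannot be set against each other, so these values do not say which transcript is more abundant.

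Tlr4, the lipopolysaccharide receptor, was only slightly higher. Its brightest probe gave 344, 335 and 332 with control peptide and 378, 395 and 420 with RI-BPI, groups that lie close together but do not overlap. The change was 0.31 ± 0.11, 1.24-fold (adjusted p = 0.0249), and the call was lost with median centring (adjusted p = 0.0602) and without any of 4 of the 6 arrays (0.0506 to 0.105). Its other detected probe gave 256, 266 and 250 against 370, 336 and 287, a change of 0.45 ± 0.11 (adjusted p = 0.00136) that passed under all 13 alternatives run on it. The remaining Tlr4 probe was not detected on any array. The difference between Tlr2 and Tlr4 within an array moved from 3.27 ± 0.21 to 3.98 ± 0.09 (SD, n = 3), a shift of 0.71 without overlap.

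To show what lies in front of these surface receptors that moved apart, the RefSeq promoter windows (build GRCm38.p6, 250 bases before to 50 after each annotated start) are printed in lower case, with matches to the kB consensus, to TTCNNNGAA and to the ISRE form (GAAA, any 2 bases, GAAA) in capitals. The kB consensus is bound by NF-kB, TTCNNNGAA is the core shared by STAT sites and many BCL6 sites, and the ISRE is bound by interferon regulatory factors. There were 10 windows for 8 of the 10 genes, and none for Tlr4 or Tlr7. The windows of Tlr3, Tlr9 and Tlr13 are not printed, and those of Tlr9 and Tlr13 hold no match in capitals. Tlr1 and Tlr6 each have 2 starts. The Tlr1 window shown is the one with a match.
Tlr2 promoter, chr3:83841559-83841858, strand -: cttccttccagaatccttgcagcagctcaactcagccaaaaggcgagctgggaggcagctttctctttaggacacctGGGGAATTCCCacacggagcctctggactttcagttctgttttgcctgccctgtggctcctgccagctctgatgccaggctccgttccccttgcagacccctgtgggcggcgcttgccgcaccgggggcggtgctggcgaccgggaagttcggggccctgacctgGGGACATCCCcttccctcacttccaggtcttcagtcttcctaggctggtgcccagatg
Tlr1 promoter, chr5:64932650-64932949, strand -: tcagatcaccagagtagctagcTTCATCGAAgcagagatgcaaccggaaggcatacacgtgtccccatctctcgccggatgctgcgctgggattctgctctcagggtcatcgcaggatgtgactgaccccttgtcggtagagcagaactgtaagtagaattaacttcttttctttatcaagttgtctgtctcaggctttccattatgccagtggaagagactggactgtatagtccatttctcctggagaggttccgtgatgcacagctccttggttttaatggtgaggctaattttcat
Tlr6 promoter, chr5:64959117-64959416, strand -: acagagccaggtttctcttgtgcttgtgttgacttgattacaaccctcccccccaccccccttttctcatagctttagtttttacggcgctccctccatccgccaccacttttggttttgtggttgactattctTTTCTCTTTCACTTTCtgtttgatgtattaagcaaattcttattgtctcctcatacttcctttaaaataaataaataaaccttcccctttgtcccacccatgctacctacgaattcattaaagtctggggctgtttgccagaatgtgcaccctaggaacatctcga
Tlr6 promoter, chr5:64959999-64960298, strand -: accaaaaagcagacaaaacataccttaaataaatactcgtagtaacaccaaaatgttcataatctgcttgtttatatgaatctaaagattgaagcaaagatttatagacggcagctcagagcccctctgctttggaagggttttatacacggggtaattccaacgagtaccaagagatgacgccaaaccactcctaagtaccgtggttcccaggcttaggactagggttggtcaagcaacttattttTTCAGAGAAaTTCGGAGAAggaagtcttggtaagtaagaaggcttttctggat
The Tlr2 window holds 3 kB matches, of which a pair overlaps, GGGGAATTCC and GGGAATTCCC, starting 173 and 172 bases before the start, and GGGACATCCC begins 8 bases before it. Among all 32851 windows 8.46% hold the kB consensus on either strand, and among the 10 windows here those of Tlr2 and Tlr3 do. TTCNNNGAA stands in 8.30% of all windows and in 4 of the 10, 1 each of Tlr1, Tlr6, Tlr8 and Myd88. In Tlr6 it occurs as TTCAGAGAA, 3 bases before the start, and TTCGGAGAA, just after it. The ISRE form stands in 3.44% of all windows and in 2 of the 10, those of Tlr6 and Myd88, and the pair of matches in Tlr6 overlaps. Searched in the same way on both strands, GAGGAA, the core of many PU.1 sites, was in 28.3% of all windows and in 4 of these, and the AP-1 motif TGANTCA was in 7.81% and in 1, that of Tlr9. These matches describe the letters of the windows, and binding was not measured.

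**Figure D2:**
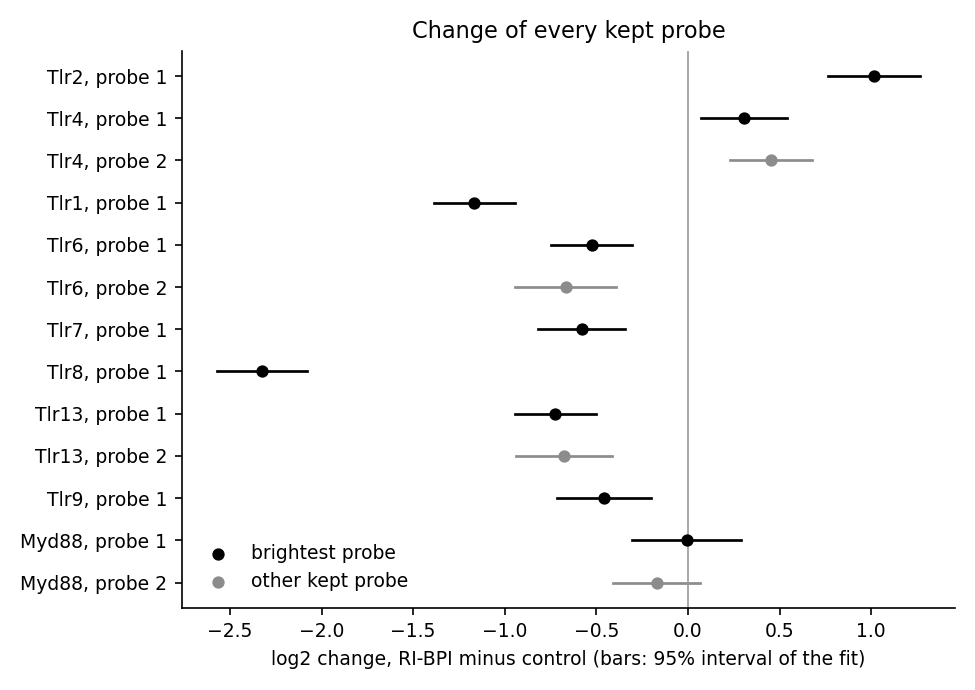
Log2 change of RI-BPI against control for the 13 kept probes of the 9 measured genes, with the 95% interval of the limma fit as bars. Black points are the brightest probe of a gene and grey points its other kept probe. The probes of Tlr4, Tlr6 and Tlr13 point the same way within each gene, and both intervals of Myd88 include 0.

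Tlr7, Tlr8 and Tlr13, the endosomal receptors detected on all 6 arrays, were lower with RI-BPI. Tlr9 was also lower but was measured only through the control arrays. Tlr8, encoded next to Tlr7 on the X chromosome and known in humans as a sensor of RNA fragments, gave signals of 247, 228 and 204 with control peptide and 61.2, 68.2 and 66.7 with RI-BPI. The RI-BPI arrays were close to the level of undetected probes but still detected on 3 of 3 arrays. The log2 level went from 7.58 ± 0.11 to 5.26 ± 0.19 (SD, n = 3), a change of -2.33 ± 0.12 or 5.01-fold lower (adjusted p = 3.43e-12). Ordered from the largest decrease, Tlr8 held rank 16 of the 8205 genes. Its RI-BPI level is dim, and the size of the change varied with the treatment of the background. It was -1.72 without background correction, -1.64 with an offset of 50 and -1.73 in the authors' normalized table.

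Tlr7, the receptor for single-stranded RNA, changed less. Its signals were 1640, 1566 and 1525 with control peptide and 1044, 977 and 1147 with RI-BPI, a fall without overlap. The log2 change was -0.58 ± 0.11, with a 95% interval from -0.82 to -0.34 (limma adjusted p = 0.000195). Within each array the difference between Tlr7 and Tlr8 moved from 3.01 ± 0.11 to 4.76 ± 0.19 (SD, n = 3), a shift of 1.74 without overlap. This shift was 1.15 without background correction, 1.08 with an offset of 50 and 1.15 in the authors' normalized table. The Tlr8 window is shown as that of the gene with the largest fall, and its capitals mark TTCTATGAA, 106 bases before the start.
Tlr8 promoter, chrX:167264280-167264579, strand -: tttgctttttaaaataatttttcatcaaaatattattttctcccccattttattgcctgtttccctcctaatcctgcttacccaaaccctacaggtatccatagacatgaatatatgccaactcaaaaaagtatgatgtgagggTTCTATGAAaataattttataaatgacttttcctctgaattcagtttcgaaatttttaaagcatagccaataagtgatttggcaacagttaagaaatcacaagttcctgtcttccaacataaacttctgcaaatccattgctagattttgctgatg

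Tlr13, which in mice binds bacterial ribosomal RNA, fell at both of its probes. The brighter probe gave 2529, 2243 and 2245 with control peptide and 1422, 1436 and 1361 with RI-BPI, a change of -0.72 ± 0.11 or 1.65-fold lower (adjusted p = 8.15e-06). The dimmer probe gave 212, 227 and 194 against 161, 138 and 111 and a change of -0.68 ± 0.13, so the estimates of the probes differ by less than their errors. Tlr9, the receptor for unmethylated CpG DNA, was dim throughout. It gave 63.9, 65.8 and 58.0 with control peptide, all detected, and 49.5, 56.0 and 50.2 with RI-BPI, none detected. It was at least 1.14-fold lower, with a fitted change of -0.46 ± 0.12 (adjusted p = 0.00303) that shrank to -0.24 without background correction and to -0.21 with an offset of 50. Its second probe was not detected on any array.

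Tlr3, the receptor for double-stranded RNA, which uses the adaptor TRIF instead of MyD88, was detected on 2 of 3 control arrays and on no RI-BPI array and was not tested. Its signals were 55.6, 49.6 and 58.8 with control peptide and 48.3, 55.1 and 53.1 with RI-BPI, so the groups overlapped near the detection limit. The other Toll-like receptors of mice on the array, Tlr5 for flagellin and Tlr11 and Tlr12 for profilin, were not detected on any array, with signals of 40.3 to 48.7. At this sensitivity a change in Tlr3, Tlr5, Tlr11 or Tlr12 was not detectable.

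Myd88 gave no call at either probe. The brighter probe read 2045, 2590 and 2537 with control peptide and 2228, 2004 and 2726 with RI-BPI, groups that overlap widely. The log2 level was 11.18 ± 0.23 with control peptide and 11.17 ± 0.30 with RI-BPI (SD, n = 3), a change of -0.01 ± 0.14 with a 95% interval from -0.31 to 0.29 (limma adjusted p = 0.969). The dimmer probe read 312, 341 and 339 against 326, 266 and 266, a change of -0.17 ± 0.11 with an interval from -0.41 to 0.07 (adjusted p = 0.205). The RI-BPI arrays of the brighter probe varied 1.65 times as much as their bead error. A change of any size within these intervals remains possible. The Myd88 window is shown for the adaptor that these receptors share. TTCTCGGAA, 46 bases before the start, overlaps GAAAGCGAAA, which begins 40 bases before it.
Myd88 promoter, chr9:119339969-119340268, strand -: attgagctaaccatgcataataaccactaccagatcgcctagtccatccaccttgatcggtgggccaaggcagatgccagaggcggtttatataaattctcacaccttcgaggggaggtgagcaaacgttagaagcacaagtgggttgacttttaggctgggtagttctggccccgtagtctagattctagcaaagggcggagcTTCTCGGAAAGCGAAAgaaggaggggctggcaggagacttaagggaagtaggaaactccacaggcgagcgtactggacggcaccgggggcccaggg

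**Figure D3:**
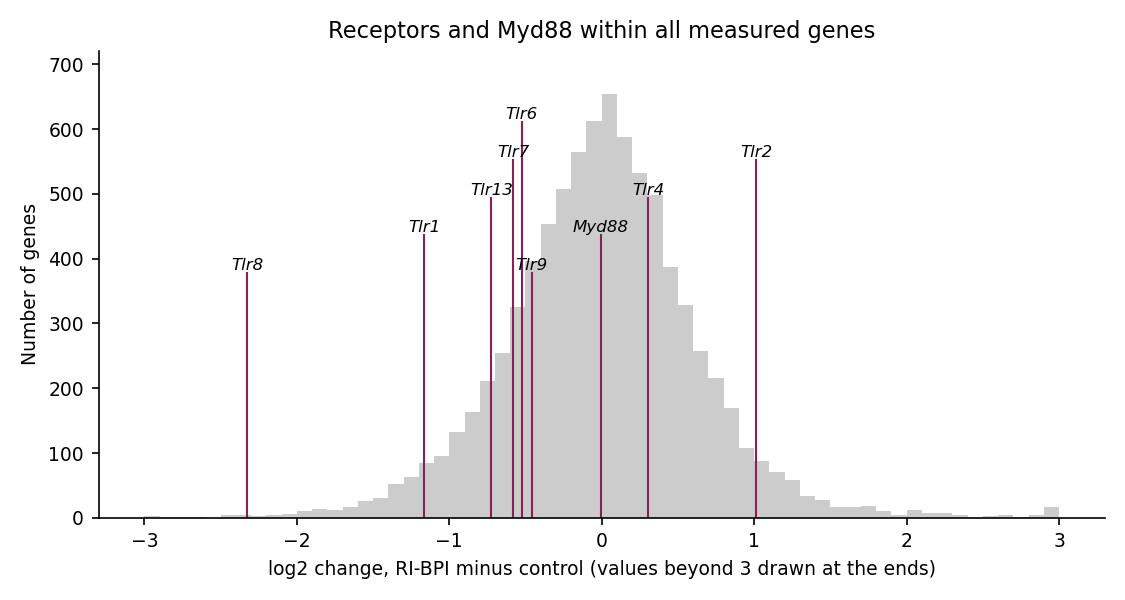
Number of genes (vertical axis) by log2 change of RI-BPI against control for the 8205 measured genes, in steps of 0.1 (values beyond the axis stand in the end bars), with the 9 measured members as lines. Tlr8 at -2.33 stands in the lower tail, Tlr1 at -1.17 and Tlr2 at 1.01 lie on opposite sides, and Myd88 is at -0.01.

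The genes around the receptors were described through 11 lists of TLR pathway genes. Of the 138 genes listed, 129 had a probe and 106 were measured, of which 36 rose, 37 fell and 33 were not called. Of all 8205 measured genes 30.7% were called higher and 30.6% lower. The counts of the lists are to be read beside these shares and are no result by themselves. The lists are given by their counts and medians, beside a median of 0.008 over all genes, and genes outside the naming rule were chosen after their values were seen.

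Of 5 measured co-receptors and accessory genes 2 rose, 2 fell and 1 was not called. Ly96, which encodes MD-2, rose by 0.34 ± 0.12 (adjusted p = 0.0167), with signals of 591, 479 and 454 against 619, 619 and 613, and the adjusted p was 0.092 with control array 2 left out and 0.0732 with control array 3 left out. Cd14 was not called (0.09 ± 0.11), with signals of 15720 to 18100 and 14970 to 18000. Ly86 and Cd180, which encode MD-1 and the TLR4-like RP105 and form a complex together, both fell, with changes of -1.29 ± 0.10 (2.45-fold lower) and -1.22 ± 0.11 (2.33-fold lower). Cd180 went from 794 to 967 down to 388 to 401, and its other kept probes gave -1.20 and -0.78. Clec7a, the beta-glucan receptor, gave 0.25 at its brightest probe and -0.31 at another, so its direction is not settled, and the call was lost with median centring. Lbp, Cd36 and Hmgb1 did not pass the filter.

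Of 10 measured genes of receptor folding and trafficking, 6 fell, 4 were not called and 0 rose, and the median was -0.53. Across all genes 30.6% fell and 30.7% rose. Hsp90b1, the gene of the chaperone gp96 that folds most Toll-like receptors, fell by 1.07 ± 0.11, with signals of 3103, 2397 and 2607 against 1355, 1361 and 1134. Unc93b1, which carries the endosomal receptors out of the endoplasmic reticulum, fell by 0.66 ± 0.13 (1.58-fold lower), from 5057 to 5489 down to 2559 to 4104, and its other probe gave -0.95. Rab7b, a GTPase of late endosomes, fell by 0.73 ± 0.11, and Bloc1s1, a subunit of complexes that position lysosomes, by 0.69 ± 0.12. Cnpy3, the cofactor of gp96, and Slc15a4, an endolysosomal transporter needed for TLR7 and TLR9 responses, lie outside the naming rule. Their changes were -0.48 ± 0.14 and -0.57 ± 0.11. Cnpy3 was dim, detected on 3 control arrays and 1 RI-BPI array. With detection on all 6 arrays, or with no filter on dim probes, 5 genes of this list fell. The adaptor subunits Ap3b1 and Ap3d1 were not called.

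Of 9 measured endosomal proteases and nucleases that act on nucleic acid receptors or their ligands, 1 rose, 4 fell and 4 were not called (median -0.24). Among those not called, Dnase2a, outside the naming rule, gave 0.01 at its brightest probe but 1.15 at another, so its change is not settled. Pld4, an exonuclease that limits TLR9 ligands in mice, fell by 0.83 ± 0.11, with signals of 4845, 5393 and 4621 against 3169, 2331 and 2569. Its relative Pld3 fell by 0.46 ± 0.13 and cathepsin Ctss by 0.45 ± 0.11, whereas cathepsin Ctsk rose by 0.86 ± 0.10 (1.81-fold).

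Of the 4 other TIR adaptors measured, 1 rose, 1 fell and 2 were not called (median 0.24). Ticam2, the gene of TRAM that joins TLR4 to TRIF, rose by 0.93 ± 0.11 or 1.91-fold (limma adjusted p = 4.63e-07), with signals of 312, 277 and 289 against 534, 487 and 518. Tirap, which brings MyD88 to TLR2 and TLR4, gave 0.25 ± 0.12 (adjusted p = 0.0766), and Ticam1, the gene of TRIF, gave 0.23 ± 0.11 (adjusted p = 0.0616), neither called. Tirap passed the test with the mean of its kept probes (0.25, adjusted p = 0.0183) and without RI-BPI array 1 (0.0181), and Ticam1 with no filter on dim probes (0.0356) and without RI-BPI array 3 (0.0436). Pik3ap1, which encodes the phosphoinositide 3-kinase adaptor BCAP, had a change of -0.81 ± 0.11, and of -1.49 at another probe. Sarm1 did not pass the filter.

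Signalling genes next to the adaptors moved both ways. Of 19 measured IRAK, TRAF and proximal kinase genes 7 rose, 4 fell and 8 were not called (median 0.13). The ubiquitin ligase Traf6 rose by 0.77 ± 0.11, with 0.43 and 0.96 at other probes, the TAK1 binding protein Tab3 by 0.86 ± 0.11 and the IKK scaffold Ikbkg by 0.82 ± 0.12. Ikbke fell by 1.27 ± 0.11, the ubiquitin cofactor Ube2v1 by 1.03 ± 0.13 and the kinase Map3k8 by 0.45 ± 0.11. With median centring 4 genes of this list rose. Irak1 was not called at -0.24 ± 0.11 and Irak2 at -0.0029 ± 0.12, although its other probes gave 0.42 and 0.27. No probe was named here for Irak4, Traf3, Chuk and Ripk1.

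Of 17 measured negative regulators 7 rose, 9 fell and 1 was not called (median -0.27). Among those counted lower, Cd300a gave -0.27 at its brightest probe and 0.90 and 1.13 at others, so its direction is not settled, and with the mean of the kept probes 8 of the list were higher and 8 lower. Those that rose most were the ubiquitin-editing enzyme Tnfaip3 (A20) by 1.53 ± 0.10, the deubiquitinase Otud7b by 1.42 ± 0.10 and the MAP kinase phosphatase Dusp1 by 0.90 ± 0.11. Those that fell most were galectin Lgals9 by 1.17 ± 0.12, with -1.42 and -0.37 at other probes, the phosphatase Ptpn6 (SHP-1) by 0.91 ± 0.10 and the receptor tyrosine kinase Axl by 0.77 ± 0.11. Sigirr and Socs1 did not pass the filter. Of 15 measured transcription factors downstream of the receptors 7 rose, 3 fell and 5 were not called (median 0.23). The NF-kB subunit gene Rel rose by 1.82 ± 0.12 (1.20 with an offset of 50), Atf3 by 1.21 ± 0.15 and Cebpb by 0.90 ± 0.11. Irf7, which acts below TLR7 and TLR9, fell by 1.25 ± 0.11, Fos by 0.67 ± 0.11 and Irf5 by 0.52 ± 0.12.

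**Figure D4:**
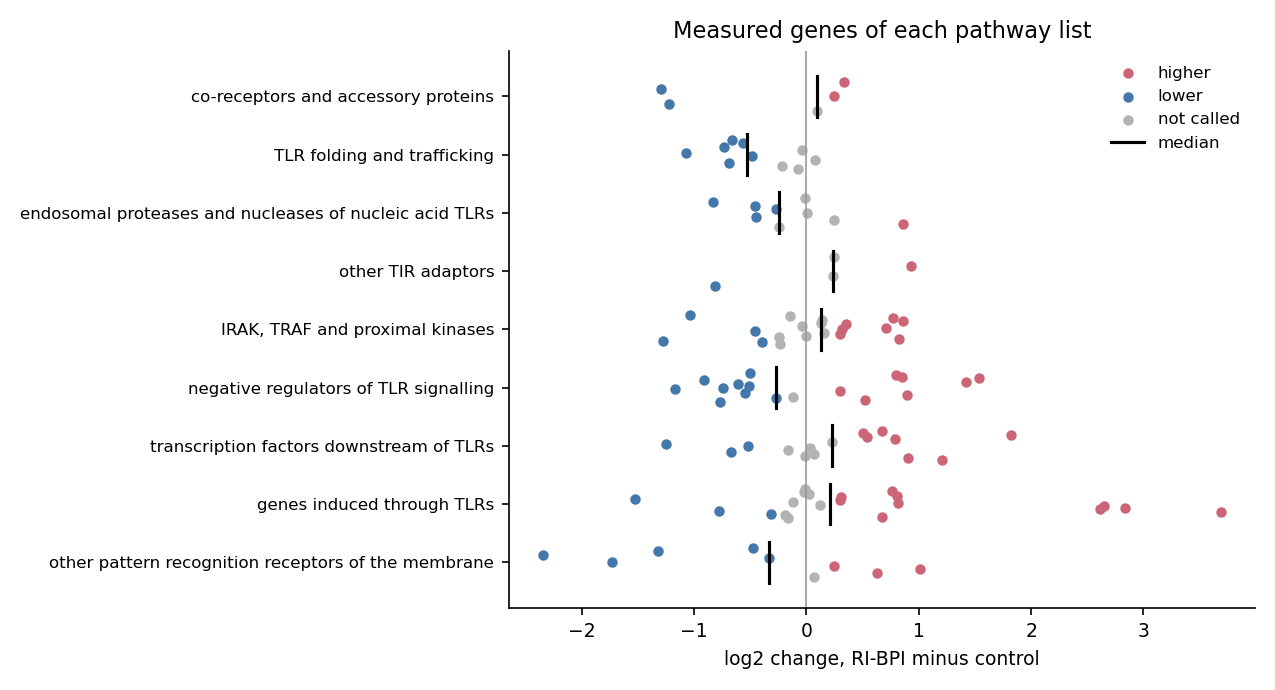
Log2 change of RI-BPI against control for each measured gene of the pathway lists, with 1 point per gene, coloured by its call, and the median of the list as a bar. Lists without a measured gene are not drawn. Folding and trafficking genes have a median of -0.53 and none is called higher, against 30.7% of all measured genes. The lists of kinases, regulators and induced genes spread to both sides.

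Of 20 measured genes that Toll-like receptors induce, 10 rose, 3 fell and 7 were not called (median 0.21). Cxcl1 (3.69 ± 0.12), Ier3 (2.84 ± 0.12) and Ifnb1 (2.64 ± 0.11, detected on 1 of 3 control arrays) were the 3 largest increases as fitted, followed by Cxcl2 (2.61 ± 0.11, with 3.11 at another probe). Ifnb1 passed the filter through the RI-BPI arrays, and its change was 1.80 without background correction, 1.69 with an offset of 50 and 1.84 in the authors' normalized table. Marcksl1 (-1.53 ± 0.13), Cxcl10 (-0.78 ± 0.11, with only -0.21 at another probe) and Ccl5 (-0.32 ± 0.11) fell. Outside the naming rule, Tnf rose by 0.76 ± 0.11, whereas Il1b (-0.12 ± 0.11) and Acod1 (-0.16 ± 0.13) were not called. Nos2 (0.02 ± 0.13) was not called either, but it was dim and detected on only 2 of 3 arrays of each group. Il6, Il23a and Ptgs2 did not pass the filter.

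Other receptors of the membrane that bind microbes also moved both ways, with 3 higher, 5 lower and 1 not called of 9 measured (median -0.33). Clec4n, the gene of Dectin-2, rose by 1.01 ± 0.11, the same size as Tlr2, with signals of 4388, 4335 and 4058 against 7493, 8884 and 7367. The mannose receptor Mrc1 (-2.35 ± 0.11), the Fc receptor Fcgr1 (-1.73 ± 0.11) and the scavenger receptor Msr1 (-1.32 ± 0.11) fell most. Clec4e and Clec7a are the others counted higher. Clec4e gave 0.63 at its brightest probe and -0.68 at another, and Clec7a gave 0.25 and -0.31, so their directions are not settled. None of the 8 members of the IL-1 receptor family with a probe, which share the TIR domain with Toll-like receptors, was measured.

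**Figure D5:**
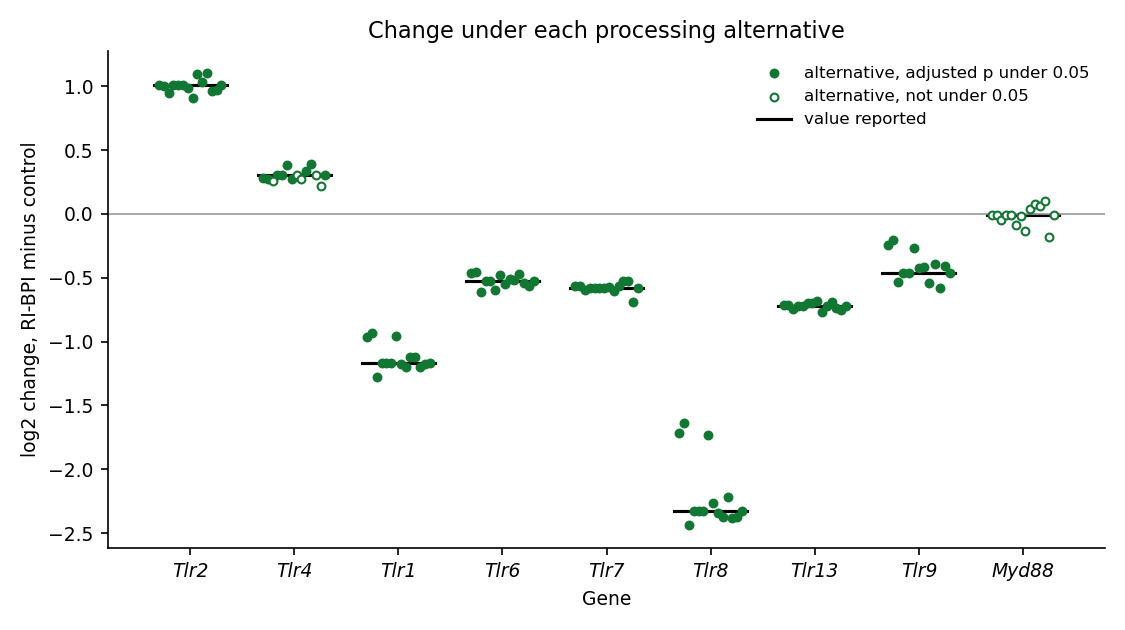
Log2 change (vertical axis) of each measured gene as reported (black bar) and under each processing alternative (green points, filled where the adjusted p was under 0.05). Tlr1, Tlr2, Tlr6, Tlr7, Tlr8, Tlr9 and Tlr13 stay filled under the alternatives drawn, Tlr4 ranges from 0.22 to 0.39 with 5 open points, and Myd88 lies on both sides of 0.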

How the data were processed

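Expression was measured on Illumina bead arrays of biotin-labelled cRNA. Per the file headers the deposited raw table gives, for every probe, an average bead intensity without normalization. Per the file headers it also gives a detection p-value, the standard error of the beads (a signal on the same scale) and the count of beads. The authors' other deposited table has normalized intensity, by a method not given in the sources used. The submitters' processing notes list GenomeStudio with no version.

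Background was corrected with normexp (limma 3.58.1, R 4.3.3), taking the background from the detection p-values (offset 16), before quantile normalization. Values were put on a log2 scale. Probes detected at p under 0.01 on at least 3 of 6 arrays were kept (13975), and a gene was read by its brightest kept probe. The groups were compared with lmFit and eBayes of limma, with Benjamini-Hochberg adjustment over 8205 genes, or over the 13975 kept probes for further probes of a gene. A change with a group undetected on 3 of 3 arrays is given as "at least N-fold", per array against the lowest detected value, or the dim probe itself where that is higher. Depth of sequencing does not apply to arrays, where the beads per probe and the number of arrays limit the precision.

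Probes were named through the platform annotation: 34885 have 1 gene symbol, 18 several and 10378 none here. RefSeq (GRCm38.p6) held 34807 of the Entrez identifiers and changed 0 symbols. The code was tested on simulated data. Alternatives covered the background, offset, scaling, filter, probe choice, the authors' table, each array left out and a replicate block. The members and gene lists were chosen with earlier results of these data known, and named genes are the members, fixed partners and up to 3 called genes per list and direction. Deviations of same-numbered arrays from their group means correlated at 0.002 to 0.03, so the numbers do not pair the arrays.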

Additional observations from a re-analysis of the deposited data

How the results depend on the processing

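The calls of Tlr1, Tlr2, Tlr6, Tlr7, Tlr8 and Tlr13 held in the same direction under all 14 alternatives, and that of Tlr9 under the 13 that could be run, since Tlr9 is lost when detection on all 6 arrays is required. Tlr9 was -0.27 in the authors' table. Tlr4 (0.31) was 0.25 and not called with median centring, where 1 gene of the set was called higher; leaving out 1 array gave 0.22 to 0.39 and 1 to 2 genes called higher. It was not called without control replicate 1 (adjusted p = 0.061), control replicate 2 (0.0882), RI-BPI replicate 2 (0.0506) or RI-BPI replicate 3 (0.105). Myd88 was never called and ranged from -0.18 to 0.10 when 1 array was left out, changing sign in 4 of 6 cases. Among pathway genes, Cd14 was -0.0036 with median centring, and with the mean of the kept probes Clec7a was -0.030 and Clec4e -0.027. Clec7a was also not called with median centring, under the replicate block, or without control replicate 1 or 2 or any RI-BPI array. With the replicate number as a block no member changed its call: Tlr4 was 0.31 (adjusted p = 0.0241). A block for the chip was not run because the column headers name none. Median centring moved the median change of all genes from 0.008 to -0.08, and 1987 genes were then called higher and 2807 lower. Between 30 and 37 pathway genes were called higher and 34 to 41 lower. Signals of Tlr8 with RI-BPI, Tlr9 and Tlr3 lie close to the background, which limits the size of their changes. The cause of the dependence on single arrays was not tested.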
